A study of Homo sapiens with 30 samples.

Results

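Wild-type peak cluster 5 is a group of 707 short stretches of open chromatin, each 500 bp wide, out of 22974 that the authors deposited in 9 clusters of wild-type peaks. Its members are all regions of the cluster numbered 5 in the deposited name, which is the smallest of the 9. The sources used here do not say which accessibility profile it stands for. The regions come from HUES8, an established human embryonic stem cell line, assayed by ATAC-seq, in which a transposase cuts and tags open DNA. The study has 30 samples in 10 groups of 3. Cells of the genotype "wild type" (called control) and cells of the genotype "HNF6-Knockout" were each sampled undifferentiated (ESC) and, during in vitro pancreatic differentiation, at 4 stages named DE (definitive endoderm), GT (primitive gut tube), PE (pancreatic endoderm) and PP (pancreatic progenitors). All groups share the one parental cell line, and the labels do not say how many clones or separate differentiations stand behind the 3 samples of a group, and the spread between these samples may therefore be technical.

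HNF6, encoded by ONECUT1, is a cut-homeodomain transcription factor of the liver and pancreas. In the embryo it is active in the early endoderm that gives rise to both organs, where it acts upstream of regulators such as PDX1 in the pancreatic bud and NEUROG3 in endocrine precursors. Regulatory DNA opens and closes as a cell moves along this path: promoters of widely used genes tend to stay open, whereas enhancers tend to be open in few stages, often where a transcription factor is bound. An accessible region that depends on a factor, directly or through other factors, is expected to lose signal when that factor is removed.

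The measurements available for the members are the authors' 10 lists of differential regions, which cover both genotypes at all 5 stages. A region stands in the control list of a stage when its values were higher in control cells than in knockout cells, and in the knockout list when they were higher in the knockout. Every listed region carries 3 control values, 3 knockout values, a log2 ratio of control to knockout and a -log10 p of at least 5, all from the authors' deposited tables. Library totals are not in these files, so the depth behind the values is unknown, and levels are not compared between stages. Together the lists hold 89929 regions. The targeted gene and the markers of each stage were not read, because no gene annotation of the hg19 build was used, and for the same reason members are given by position and not by gene. The clusters were built from wild-type samples and the lists compare wild-type samples with the knockout, so the grouping and the differences are not fully independent.

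Members of cluster 5 stood out by how many of them were less accessible in the knockout at the pancreatic progenitor stage. A member was counted as listed where 1 bp or more of it fell within a list region. In the control PP list, 169 of the 707 members were found, a share of 23.9% (95% Wilson interval 20.9 to 27.2), where 2.47% of all cluster regions were found. The next highest shares were 7.60% in cluster 6 and 6.20% in cluster 8, and the remaining 6 clusters lay between 0.15% and 2.13%. The share in cluster 5 was 13.3 times that of the other 8 clusters together (1.79%; interval of the ratio 11.3 to 15.7). The intervals cover counting error only: regions are not replicates of a condition, and no test across regions was made. On each of the 23 chromosomes that hold members, the share was higher in cluster 5 than in the other clusters. It ran from 13.3% on chromosome 13 to 37.7% on chromosome 1, against 0% to 7.61% for the other clusters.

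**Figure D1:**
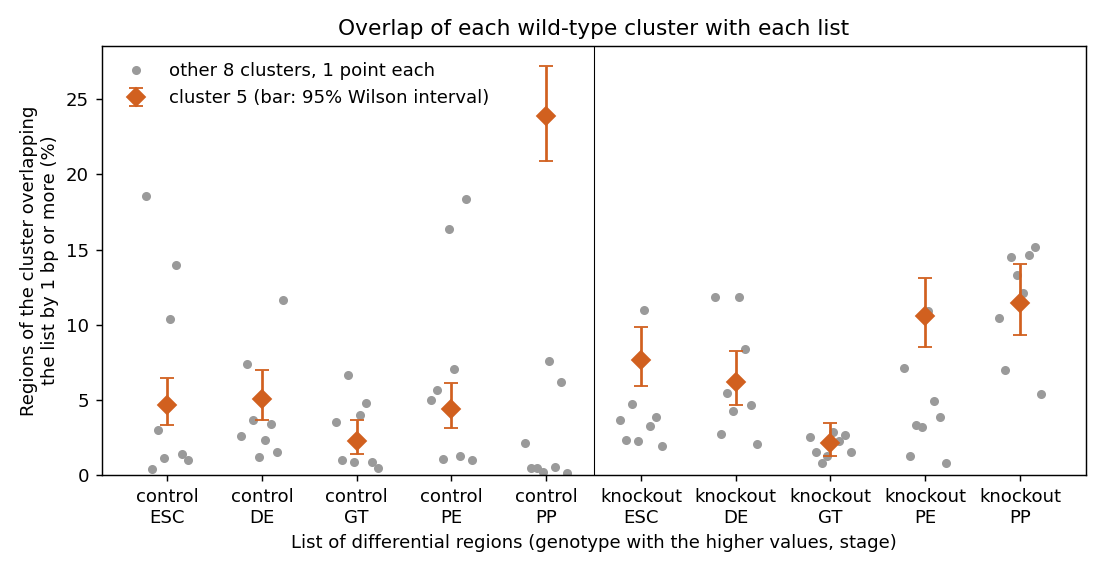
Share of the regions of each wild-type cluster (vertical axis, %) that overlap each of the 10 lists (horizontal axis). The diamond is cluster 5 with its 95% Wilson interval and each grey point is another cluster; cluster 5 stands at 23.9% in the control PP list, where the next cluster has 7.60%, and within the range of the other clusters in the other 9 lists.

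A smaller excess of cluster 5 was seen among regions more accessible in the knockout at PE and at ESC. The knockout PE list held 75 members, 10.6% (8.55 to 13.1), where 3.97% of all cluster regions were called. This was 2.83 times the share of the other clusters (2.26 to 3.54), and cluster 6 had a similar share. The knockout ESC list held 54 members, 7.64% (5.90 to 9.83), against 3.73% of all cluster regions, a ratio to the other clusters of 2.12 (1.62 to 2.76), and cluster 6 had a higher share, with 183 of 1671 regions. The share was higher than in the other clusters on 20 of 23 chromosomes at PE and on 17 of 23 at ESC. In the control PE list cluster 5 was below the pooled share of the others but above clusters 3, 7 and 9 (1.02% to 1.27%), with 31 members or 4.38% (3.11 to 6.16) against 6.44% of all cluster regions, a ratio of 0.67 (0.48 to 0.95). With list regions of at least 2-fold alone, the PE ratios lay on the other side of 1, but both intervals include 1. They were 0.93 for the knockout list (1 member, 0.13 to 6.76) and 1.37 for the control list (8 members, 0.68 to 2.77).

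In the remaining lists the share of cluster 5 was near that of all cluster regions. The control ESC list held 33 members (4.67%, all cluster regions 5.38%). At DE the control list held 36 members (5.09%, all cluster regions 4.99%) and the knockout list 44 (6.22%, all cluster regions 5.69%). At GT the control list held 16 members (2.26%, all cluster regions 2.49%) and the knockout list 15 (2.12%, all cluster regions 1.86%). The knockout PP list is by far the longest of the 10, with 24770 regions, and it held 81 members (11.5%, all cluster regions 11.1%). The interval of the ratio to the other clusters included 1 in each of these 6 lists. With list regions of at least 2-fold alone the ratio was 0.36 for knockout PP (6 members, 0.16 to 0.81), an interval that excludes 1. It was 0.70 for knockout DE (1 member, 0.097 to 5.07). With every list cut to the length of the shortest, the intervals for control ESC (0.27 to 0.98) and knockout DE (1.03 to 2.39) also excluded 1.

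Most listed members were higher in the knockout at PE and most were higher in control at PP. Over members in the list of 1 genotype only, 30 were higher in control and 74 higher in the knockout at PE, so that 28.8% (95% Wilson interval 21.0 to 38.2) were higher in control. At PP the numbers were 168 and 80, or 67.7% (61.7 to 73.3). This contrast was not present with list regions of at least 2-fold alone, where 88.9% at PE (9 members) and 90.8% at PP were higher in control. The other clusters together moved the opposite way, from 63.4% (61.4 to 65.4) at PE to 13.8% (12.6 to 15.1) at PP. Among them cluster 6 changed little, from 39.3% to 38.6%, while each of the rest fell. The control and knockout lists held 7111 and 5566 regions at PE, and 3169 and 24770 at PP. With every list cut to the length of the shortest, cluster 5 had 20.5% at PE and 88.7% at PP. The other clusters were not recomputed in this way, and the part of list length in these shifts was not tested. At ESC, 37.9% (28.5 to 48.4) of the listed members were higher in control, where the other clusters had 60.0% (57.8 to 62.1). At DE and GT the intervals of cluster 5 (34.6 to 55.9 and 34.8 to 68.0) included the values of the other clusters, 46.7% and 57.4%. PP was also the stage with the most listed members, 249 or 35.2%, while 458 members were in neither PP list. The deposited tables give no value for a member that no list touches, so these members are not shown to be equal between the genotypes.

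**Figure D2:**
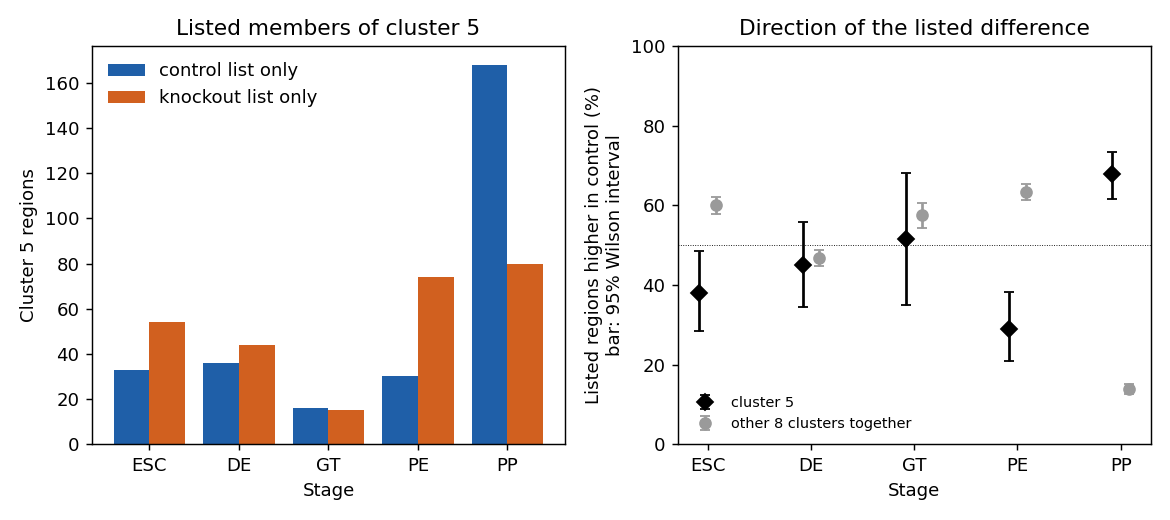
Left, number of cluster 5 regions (vertical axis) found only in the control list or only in the knockout list of each stage. Right, percentage of such regions that were higher in control, for cluster 5 and for the other 8 clusters together, with 95% Wilson intervals; cluster 5 goes from 28.8% at PE to 67.7% at PP while the other clusters go from 63.4% to 13.8%.

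Members were concentrated at the top of the control PP list. The 169 members were touched by 163 list regions, 6 of which covered more than 1 member. These 163 were 5.14% of the list, but 8 of its leading 20 regions by the authors' p, 38 of the leading 100 and 99 of the leading 633. Over 5 successive parts of the list, each of 633 or 634 regions, the share of list regions touching cluster 5 was 15.6%, 4.89%, 2.05%, 1.74% and 1.42%. Among the leading 100, 54 regions touched any cluster, so cluster 5 accounted for 70.4% of those. In the knockout PP list, too, list regions touching cluster 5 were more frequent near the top, at lower shares: they were 0 of the leading 20, 3 of the leading 50 and 5 of the leading 100, where they were 0.323% of the whole list.

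**Figure D3:**
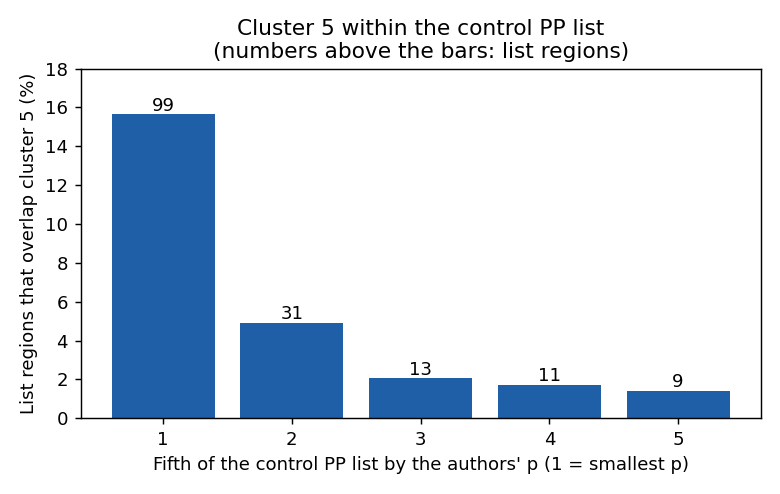
Share of control PP list regions that overlap cluster 5 (vertical axis, %) in each of 5 successive parts of the list ordered by the authors' p, the number of such regions standing above each bar. It is 15.6% in the part with the smallest p and 1.42% in the last.

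The control PP differences in cluster 5 were larger and more cleanly separated between samples than those in other clusters. The median log2 ratio of control to knockout over the 163 list regions was 0.88 (quartiles 0.71 and 1.17), against 0.60 (0.47 and 0.82) over the 375 list regions that touch other clusters and 0.85 over the whole list. A ratio of at least 2-fold was found in 59 of the 163, or 36.2%, where it was found in 38.7% of the whole list and in 13.3% of the list regions touching other clusters. All 3 control values lay above all 3 knockout values in 149 of 163, or 91.4%, where 82.5% of the whole list was separate and 81.6% of the regions of other clusters. The smallest p that an exact two-sided permutation test allows with 3 values against 3 is 0.1, reached when the genotypes are separate. Per kb of list region, the median level was 501 in control and 260 in knockout samples in cluster 5, and 649 and 416 in the other clusters. Within these regions the control value in the first place of its set was the lowest of the 3 in 82 of 163, and the knockout value in the first place was the highest of the 3 in 75 of 163. Whether a library that stands apart contributes to this was not tested, but leaving out each value in turn gave medians of 0.82 to 0.93.

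The member with the smallest authors' p at PP was chr12:125049365-125049864, in the list region chr12:125048751-125050650 (all positions are hg19). Its values were 1016, 1193 and 1308 in control PP, against 666, 484 and 365 in knockout PP samples, a log2 ratio of 1.21, and the highest knockout value was well under the lowest control value. This member was also listed as higher in control at PE, with 493, 782 and 819 against 385, 404 and 346, and at ESC, with 1408, 1008 and 1015 against 764, 702 and 757. Control values were thus the higher ones at ESC, PE and PP, and the member was in no list of DE or GT. The ESC list region, chr12:125049651-125051600, shares only part of its bases with the PP one.

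Chromosome 20 carried a pair of leading members whose starts lie 41323 bp apart. The member chr20:57893676-57894175 had 917, 1122 and 889 in control, against 386, 515 and 321 in knockout PP samples, a log2 ratio of 1.26. Its neighbour chr20:57934999-57935498 had 779, 718 and 733 in control, against 376, 269 and 258 in knockout samples, a log2 ratio of 1.30. Both were listed at PP and in no other list. In each of them the genotypes differed by more than the spread of either, with means of 976 ± 127 against 407 ± 98.7 and 743 ± 31.8 against 301 ± 65.2 (SD, n = 3).

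Among the other leading members the log2 ratio ranged from 0.63 to 2.44. At chr2:67302951-67303450 the control samples had 358, 659 and 593 and the knockout samples 142, 230 and 110, a log2 ratio of 1.73. At chr14:74680688-74681187 the values were 700, 501 and 696 against 283, 211 and 159, a log2 ratio of 1.53. At chr17:57433091-57433590 they were 360, 299 and 277 against 69, 56 and 45, a log2 ratio of 2.44. These 3 members were in no list of another stage. The highest level among the leading 12 was at chr19:54931618-54932117, with 2446, 2593 and 2587 against 1487, 1622 and 1816. That list region had the smallest log2 ratio of the 12, 0.63, and it is 2100 bp wide.

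The spread between knockout samples was wide in several leading members. At chr9:128556911-128557410 the knockout samples had 151, 47 and 53 where the control samples had 274, 473 and 356. At chr6:112824341-112824840 they had 254, 120 and 129 against 396, 627 and 438. At chr12:119318211-119318710 the third knockout value stood apart, with 249, 223 and 46 against 426, 516 and 463. In none of the 3 did the genotypes overlap. The remaining leading members, chr4:72050163-72050662 (564, 407 and 467 against 150, 190 and 155) and chr10:123096926-123097425 (788, 893 and 745 against 378, 371 and 469), were also separate, so that the 12 leading members all had control values above the knockout values. The 12 were picked by smallest p, and 82.5% of the whole control PP list was separate. Of the 12, 8 were listed at PP only.

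**Figure D4:**
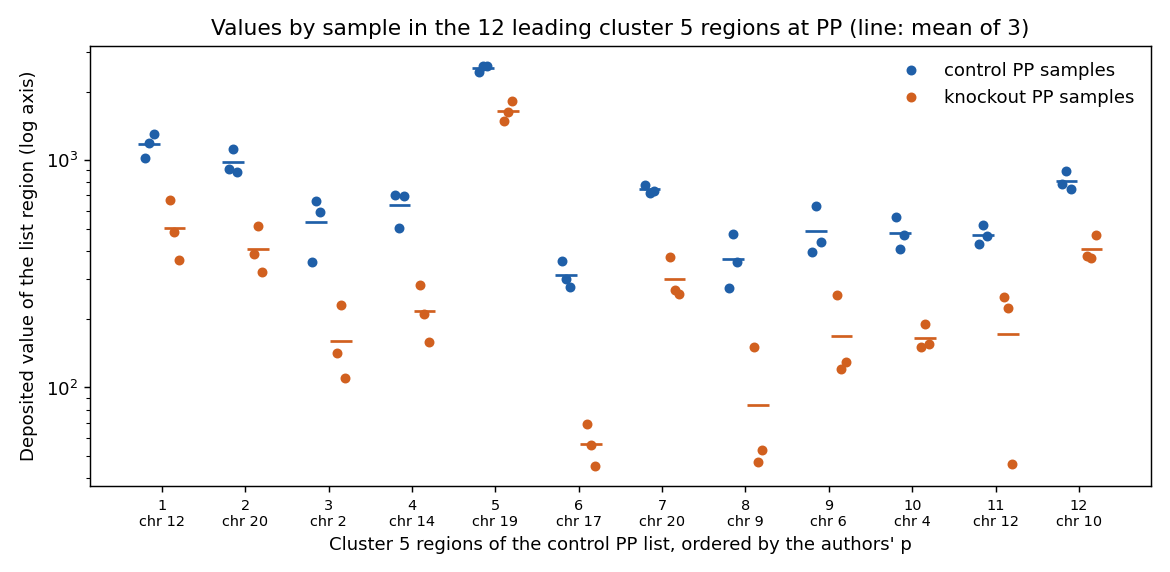
Deposited values of the list region in the 3 control PP and 3 knockout PP samples (log axis) for the 12 cluster 5 regions with the smallest authors' p in the control PP list, in that order and labelled by chromosome; lines are means of 3. In all 12 the lowest control value lies above the highest knockout value, as in 82.5% of the whole control PP list.

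By ratio, the largest PP difference was at chr1:217626157-217626656. Control PP samples had 167, 172 and 181 there, and knockout samples 0, 20 and 45, a log2 ratio of 2.94 computed with 1 added to each mean. It was followed, after the chromosome 17 member above, by chr2:32689467-32689966 with 177, 130 and 134 against 47, 25 and 11 (2.37) and by chr2:170050077-170050576 with 135, 199 and 199 against 34, 28 and 48 (2.25). The member chrX:109811511-109812010 had 172, 211 and 140 against 22, 66 and 23 (2.21). These 4 had control means of 147 to 178 over list regions of only 400 to 500 bp, and the genotypes did not overlap in any of them.

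Members more accessible in the knockout at PP showed smaller differences in wider list regions. The 81 members were touched by 80 list regions with a median log2 ratio of -0.58 (quartiles -0.68 and -0.48), against -0.77 over the list regions touching other clusters. A ratio of at least 2-fold was found in 6 of the 80, or 7.50%. It was found in 56.8% of the whole list and in 22.7% of the list regions touching other clusters. The values were separate in 63 of 80, or 78.8%, where 79.4% of the whole list was. The leading member by p, chr10:47129189-47129688, had 2386, 1660 and 2329 in knockout, against 1381, 1433 and 1136 in control PP samples. At chr8:22036270-22036769 the values were 812, 1134 and 1101 against 395, 555 and 539, a log2 ratio of -1.03. At chr2:73316601-73317100 they were 831, 547 and 521 against 239, 370 and 237 (-1.16), and at chr5:5350157-5350656 they were 1003, 717 and 1094 against 361, 594 and 494 (-0.96). All 4 were separate between the genotypes. The first knockout value was the highest of the 3 in 41 of these 80 list regions and in 57.6% of the whole knockout PP list, so that 1 place in the set leans high across this list. Leaving out each value in turn gave medians of -0.66 to -0.53.

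A single member, named here after its values were seen, stood in both PP lists. At chr17:59563908-59564407 the list region on its left side, ending at 59564400, had 598, 673 and 608 in control, against 486, 345 and 530 in knockout samples. The abutting region, from 59564401, had 413, 323 and 429 in knockout, against 148, 343 and 252 in control samples, and these values overlapped.

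At PE, the few members higher in control included large differences. The leading one, chr2:4137936-4138435, had 732, 797 and 901 in control, against 332, 220 and 252 in knockout PE samples, a log2 ratio of 1.59, and was also listed as higher in control at PP. At chr15:70458158-70458657 the values were 1081, 1264 and 1772 against 814, 571 and 709 (0.97), and at chr14:104750410-104750909 they were 1401, 1493 and 1375 against 963, 950 and 762 (0.67). Over the 30 list regions touched, 8 reached 2-fold, or 26.7%. The share was 45.7% in the whole list and 14.0% in the list regions touching other clusters. Of the 30, 22 were separate, or 73.3%, where 79.5% of the list was. The median log2 ratio was 0.66.

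The larger group, higher in the knockout at PE, had a narrower range of sizes. Its 72 list regions had a median log2 ratio of -0.51 (quartiles -0.66 and -0.44). A ratio of 2-fold was reached by 1 of them, 1.39%, and it lies at chr10:13657631-13658130 (-1.04). The share was 23.3% in the whole list and 4.72% in the list regions touching other clusters. The values were separate in 56 of 72, or 77.8%, where 74.9% of the list was. At chr22:38148569-38149068, the leading member, the knockout samples had 1097, 904 and 1089 and the control samples 528, 702 and 457. At chr1:40112064-40112563 they had 798, 741 and 719 against 365, 381 and 485. The members chr3:39231244-39231743 and chr3:39232241-39232740 share 1 list region, with 1536, 1462 and 1264 against 1000, 808 and 877. In each of these list regions every knockout value was above every control value.

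Few members reached a 2-fold difference at the earlier stages. Over the list regions touching cluster 5, the median log2 ratio was 0.66 in the control ESC list and -0.52 in the knockout ESC list. It was 0.54 and -0.53 in the control and knockout lists of DE and 0.56 and -0.64 in those of GT. Over the list regions of other clusters these medians were 0.52 and -0.58 at ESC, 0.80 and -0.55 at DE, and 0.64 and -0.69 at GT. Ratios of at least 2-fold were found in 1 of 34 (control ESC), 0 of 52 (knockout ESC), 0 of 32 (control DE), 1 of 42 (knockout DE), 0 of 14 (control GT) and 2 of 15 (knockout GT), where the whole lists had 28.1%, 45.6%, 57.4%, 33.9%, 42.1% and 53.9%. In the list regions touching other clusters the shares were 4.43%, 15.7%, 25.8%, 3.93%, 14.0% and 18.6% in the same order. The 4 members concerned were chr5:141669210-141669709 (1.16, control ESC), chr18:42358689-42359188 (-1.43, knockout DE), chr9:97460129-97460628 (-1.55, knockout GT) and chr2:234198587-234199086 (-1.32, knockout GT); the last had 192, 94 and 207 in knockout GT samples where control had 86, 69 and 40. The values were separate in 27 of 34 list regions of control ESC (whole list 73.9%) and in 37 of 52 of knockout ESC (77.7%). At DE they were separate in 21 of 32 (control, whole list 79.9%) and 33 of 42 (knockout, 76.1%), and at GT in 10 of 14 (82.7%) and 10 of 15 (82.5%).

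The leading members of the early lists given here lay in list regions of 2150 to 3550 bp, and the genotypes overlapped in 2 of them. The values are those of the list region and were not divided by its width. At ESC, chr13:72441069-72441568 had 1330, 1321 and 1463 in knockout, against 855, 617 and 1090 in control samples, and chr4:157892429-157892928 had 1167, 1026 and 1288 against 516, 768 and 824. The leading control ESC member, chr12:120668112-120668611, had 3713, 3495 and 2456 in control, against 3069, 2241 and 2036 in knockout samples, with overlap. At DE, chr3:137801292-137801791 had 492, 568 and 476 in control, against 334, 210 and 303 in knockout samples, and chr14:105955966-105956465 had 1685, 1437 and 1524 in knockout, against 1207, 976 and 984 in control samples. At GT, chr8:110986314-110986813 had 1210, 916 and 1212 in control, against 764, 871 and 670 in knockout samples. For the knockout GT list the leading member, chr3:37754596-37755095, had 476, 374 and 551 in knockout, against 188, 397 and 242 in control samples, with overlap. Apart from the 2 with overlap, the genotypes were separate in these 7 early members.

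Members listed as higher in control at PP were compared with the other lists. Of the 169, 134 or 79.3% (72.6 to 84.7) were in no other list, against 214 of 399 or 53.6% (48.7 to 58.5) in the other clusters. A control list of another stage also held 25 of the 169 (14.8%, other clusters 32.3%), and a knockout list 12 (7.10%, other clusters 18.5%). The control PP members made up 12 of the 31 control PE members (38.7%, interval 23.7 to 56.2) and 10 of the 33 control ESC members (30.3%, 17.4 to 47.3), where they were 23.9% of the whole cluster. In the control DE list they were 4 of 36 (11.1%, 4.41 to 25.3) and in the control GT list 1 of 16 (6.25%, 1.11 to 28.3). These 4 intervals include the share of the whole cluster. So does that of the knockout DE list, with 8 of 44 (18.2%, 9.51 to 32.0). The share was lower in the knockout PE list, with 3 of 75 (4%, upper bound 11.1), and in the knockout ESC list, with 0 of 54, which allows up to 5.56% taken as 3 of 54 (Wilson upper bound 6.64%). Lists of different stages share no samples.

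The 12 members higher in control at both PE and PP were separate at both stages. Separate values were found in 79.5% of the whole control PE list and 82.5% of the whole control PP list. Their log2 ratios ran from 0.62 to 1.93 at PE (median 1.02) and from 0.71 to 1.53 at PP (median 1.09). At chr21:44178524-44179023 the values were 355, 270 and 310 in control, against 163, 123 and 124 in knockout PE samples, and 644, 598 and 498 against 327, 320 and 138 at PP. At chr7:36967953-36968452 they were 127, 74 and 82 against 27, 46 and 22 at PE, and 414, 582 and 393 against 259, 210 and 299 at PP. At chr4:72050163-72050662 the PE values were 148, 189 and 194 against 56, 113 and 94. The first 2 of these were chosen after their values were seen, as examples of the 12.

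Of the members higher in the knockout at PE, 20 of 75 were also higher in the knockout at PP (26.7%), where 11.5% of all members were. The corresponding share in the other clusters was 21.9%, which lies inside the 95% interval of cluster 5. Knockout ESC members were in the control DE list in 12 of 54 cases (22.2%, 13.2 to 34.9), where 5.09% of all members were and where the other clusters had 5.72%. Opposite directions at PE and PP were listed for 7 members: 4 were higher in control at PE and in the knockout at PP (starting at 21312421 and 57662184 of chromosome 16 and at 18023443 and 129208661 of chromosome 4), and 3 the reverse (86223590 of chromosome 2, 45230705 of chromosome 21 and 137179624 of chromosome 9). Of the first 4, the one at 57662184 was in both PE lists, with log2 ratios of 0.44 and -0.60. It is therefore also among the 20 above that were higher in the knockout at both stages. The first 4 are 12.9% of the 31 control PE members, where 11.5% of all members were in the knockout PP list, and the other 3 are 4% of the 75 knockout PE members, where 23.9% were in the control PP list. In 1 of the 7, the member on chromosome 21, the values were separate at both stages, with 845, 659 and 656 in control against 1122, 1013 and 944 in knockout PE samples, and 433, 542 and 563 against 341, 318 and 388 at PP.

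The share of regions found in any list was about equal in clusters 5 and 6 and lower in the other 7 clusters. At least 1 list held 407 members of cluster 5, 57.6% (53.9 to 61.2), where 38.4% of all cluster regions were in a list and cluster 6 had 57.5%. At 2 or more stages 121 members were listed, 17.1% against 18.6% in cluster 6, 14.3% in cluster 1 and 8.09% in the other 8 clusters together. Of these 121, 56 (46.3%) changed direction between stages, against 51.5% in the other clusters. At 3 or more stages 20 members were listed, 2 of them higher in control each time, 6 higher in the knockout each time and 12 in both directions. The 12 are 60%, where 180 of 255 such regions of the other clusters (70.6%) were in both directions. The member higher in the knockout at ESC, DE and PE, chr21:44614394-44614893, was separate at each: 314, 268 and 387 against 218, 125 and 209 at ESC, 374, 260 and 245 against 169, 157 and 208 at DE, and 678, 408 and 447 against 296, 369 and 277 at PE. At chr2:219260806-219261305, higher in control at ESC, DE and PP, the values were separate at ESC (800, 793 and 794 against 546, 577 and 668) and overlapped at DE and PP.

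The 4 members listed at 4 stages each changed direction along the series. Such changes were common: at 3 or more stages 70.6% of the listed regions of the other clusters had both directions. At chr13:60971018-60971517 knockout values were higher at ESC, DE and PP and control values at GT, where they were 522, 533 and 300 against 225, 367 and 311. The genotypes overlapped at DE and GT. At chr4:129208661-129209160 the knockout was higher at ESC (1259, 1220 and 1648 against 711, 1054 and 1131) and at PP, and control at DE and PE, with overlap at the last 3 of these stages. At chr5:10250166-10250665 control was higher at DE alone (742, 573 and 596 against 532, 463 and 356) and the knockout at ESC, PE and PP, with overlap at ESC. At chr5:176895959-176896458 control was higher at ESC (1099, 920 and 859 against 743, 738 and 581) and the knockout at DE, PE and PP, and the genotypes were separate at all 4 stages.

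The listed PP differences in control's favour were centred on the members, while the differences of other lists often were not. The median distance between the centre of a member and the centre of its list region was 91 bp in the control PP list, and 141 of 169 pairs (83.4%) lay within 250 bp. For other clusters in that list the median was 144 bp and the share 68.2%. In the other 9 lists the median distance for cluster 5 ranged from 177 bp (control PE) to 585 bp (control GT), and it was 342 bp in the knockout PP list. List regions were also narrower, with a median width of 800 bp for cluster 5 members of the control PP list and 1350 bp for those of the knockout PP list. A distance from the centre depends on the width, and neither was adjusted for the other.

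By median, members with lower signal in the knockout at PP lay further from other cluster regions than the rest of cluster 5. The nearest other cluster region, from start to start, was at a median of 18236 bp (quartiles 2503 and 74747) for the 169 control PP members. It was at 3500 bp for the 81 knockout PP members, 2329 bp for the 75 knockout PE members and 7601 bp for the 300 members in no list. Over all regions of a cluster the median was 6928 bp in cluster 5. In the others it ran from 3381 bp (cluster 6) to 23359 bp (cluster 9), and cluster 2 had 22373 bp. A median of 18236 bp is therefore not unusual among cluster regions. In the other clusters the control PP regions were not set apart in this way, with a median of 8701 bp against 15262 bp for regions in no list. Within 2000 bp of another cluster region lay 40 of the control PP members (23.7%) and 34 of the knockout PP members (42.0%), where all members had 36.5%. After a cluster 5 region the next cluster region along the chromosome was a cluster 5 region in 9.62% of cases. After a region of another cluster it was one in 2.87% of cases. How often regions of another cluster follow their own kind is not given here. The members themselves were spread over all 22 autosomes and chromosome X, from 2.07% of the cluster regions of chromosome 19 to 4.88% of those of chromosome X.

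**Figure D5:**
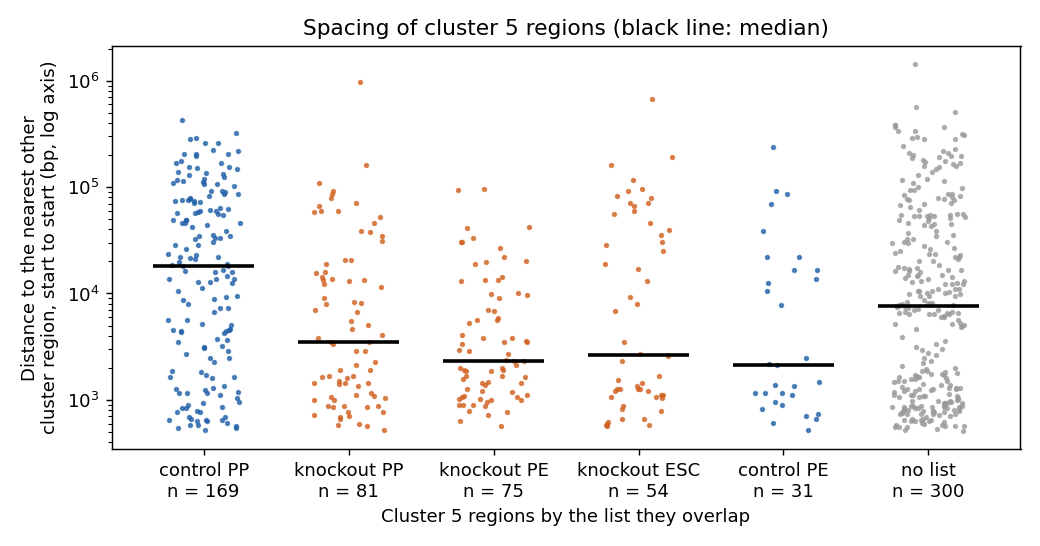
Distance from each cluster 5 region to the nearest other cluster region (bp, log axis), for members in 5 of the lists and in no list; black lines are medians. The control PP members have a median of 18236 bp, above those of the other groups shown, and the distributions overlap.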

How the data were processed

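ATAC-seq of 30 HUES8 samples was used as region lists. The submitters' processing notes name Bowtie2, MACS2 and the hg19 build, without versions or roles. For the differential caller, read shifting, scaling and clustering the sources used here give nothing. The deposited log2 ratios equal the log2 ratio of the deposited means of 3 values with 1 added to each. The deposited whole numbers are called values, since nothing says whether they are scaled, and no count model was run. In them the second set of 3 was read as control, from the names of the lists, in which its mean is the higher one in the control lists. The number inside each cluster file differs from the file's own number, and the latter was used. Starts are printed counted from 1.

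Overlaps (at least 1 bp), shares, Wilson intervals and ratios of shares were computed with Python 3.11.15, pandas 2.3.3 and scipy 1.17.1, and tested on simulated lists. No test across regions was made. Named members are the 12 leading by p and 6 by ratio in the control PP list, the 4 leading by p in every other list, ties kept, and the 6 or more listed at most stages; some of these are summarised. Pairs of lists, successive parts of the control PP list and distances were described after seeing the data. The members and lists were chosen with earlier results of these data known. The only reference tables here are of GRCh38, so no gene or sequence was assigned to a region. Gene lists and motifs planned for an hg19 annotation were not used.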

Additional observations from a re-analysis of the deposited data

Results flagged for a closer look

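In 11 of the members named in the text, or covered by the rule for naming them, the genotypes were separate, 3 samples against 3, in opposite directions at 2 stages. The difference between the stages itself was not tested. The list regions of the stages share 300 to 1850 bp and do not cover the same bases. Of the 121 members listed at 2 or more stages, 56 (46.3%) changed direction, against 51.5% in the other clusters. Separate values were found in 73.9% to 82.7% of the regions of the whole lists. The corresponding count over all members or in the other clusters is not given here. The values below are the log2 ratio of control to knockout at the stage with control higher minus that at the stage with knockout higher. At chr22:38148569-38149068 the difference was 1.68 between ESC (0.81) and PE (-0.87) and 1.35 between ESC and PP (-0.54). At chr22:38480152-38480651 control was higher at ESC (0.51) and PP (0.62) and knockout at DE (-0.56), with differences of 1.07 and 1.19. At chr21:30365023-30365522 control was higher at DE (0.58) and knockout at ESC (-0.65) and PP (-0.59), with differences of 1.23 and 1.17. At chr5:10250166-10250665 control was higher at DE (0.50) and knockout at PE (-0.50) and PP (-0.48), with differences of 1.00 and 0.981. At chr5:176895959-176896458 control was higher at ESC (0.48) and knockout at DE (-0.51), PE (-0.68) and PP (-0.48), with differences of 0.992, 1.16 and 0.957. At chr6:85473991-85474490 the difference was 0.912 between GT (0.38) and PP (-0.53). At chr13:72441069-72441568 it was 1.32 between DE (0.64) and ESC (-0.68), at chr19:5046224-5046723 it was 1.07 between ESC (0.53) and PE (-0.55), and at chr21:45230705-45231204 it was 1.06 between PP (0.55) and PE (-0.51). At chr1:876958-877457 it was 0.672 between GT (0.34) and ESC (-0.34) and 0.721 between GT and DE (-0.39). The neighbour chr1:875800-876299 lies in the same list regions at GT and DE and has the same difference there, 0.721.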

How the results depend on the processing

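The excess of cluster 5 in the control PP list was present under all 8 alternatives, with ratios of shares of 13.3 to 35.7. It was 18.1 when list regions weaker than the median p of their list were dropped, and 35.7 with list regions of at least 2-fold (59 members). The 2-fold limit turned the point values of 4 results that rest on few members. The control PE ratio became 1.37 (8 members, interval 0.68 to 2.77) and the knockout PE ratio 0.93 (1 member, 0.13 to 6.76). Both intervals include 1. The control percent became 88.9 at PE (56.5 to 98.0) and 100 at ESC (1 member, 20.7 to 100). Under the same limit the ratio moved to 0.70 for knockout DE (1 member) and 0.36 for knockout PP (6 members, 0.16 to 0.81). The control percent moved to 0 at DE (1 member, upper bound 79.3), 0 at GT (2 members, upper bound 65.8) and 90.8 at PP. Without the weaker list regions, ratios were 0.57 for control ESC (0.34 to 0.97) and 3.63 for knockout PE, and the control percent at ESC was 25.9. With every list cut to the length of the shortest, ratios were 0.51 for control ESC (0.27 to 0.98) and 3.25 for knockout ESC. They were 1.57 for knockout DE (1.03 to 2.39) and 3.63 for knockout PE. The control percent was then 24.3 at ESC, 20.5 at PE and 88.7 at PP. The cause was not tested for these. With an overlap of 250 bp, 53.6% of members were listed at 1 or more stages and 13.4% at 2 or more, since fewer overlaps count. The median log2 ratio of the control ESC list was 0.58 to 0.66 with each value left out in turn (0.60 without the second knockout value). The other 184 alternative values kept within the interval or spread of the main value. No paired analysis was possible because the deposited values carry no replicate numbers. Unknown depth limits what an unlisted member shows.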
